A study of Canis lupus familiaris with 6 samples.

Results

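Neural crest and epithelial-mesenchymal transition (EMT) regulators and markers, 10 genes in all, were followed in 2 canine melanoma cell lines: ZEB1, ZEB2, TWIST1, SNAI1, SNAI2, SOX9, SOX10, NGFR, NES and MSX1. They were chosen by gene symbol, with earlier results of these data known. Of the 10 genes, 9 were listed, each in a single row of the 30951 genes of the table. No row carried the symbol TWIST1, which is not analysed here. Of the 9 listed genes, 8 had enough counts in at least 1 library to be tested, and SOX10 did not.

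The lines are named CMM2 and CMM12, and each contributed 1 control library, with the genotype given as WT, and 2 libraries of podoplanin knockout (KO) lines numbered KO 1 and KO 2. Podoplanin is a mucin-like membrane glycoprotein. The labels do not say how the gene was disrupted, whether a KO line is 1 clone or whether libraries came from separate cultures. The p-values therefore cover the spread among these 6 libraries and no more, and that spread may be technical. Library totals ran from 9732927 to 11807835 estimated counts. The targeted transcript, PDPN, stood at 27.6% of the control level in both CMM2 KO libraries, and at 17.4% and 11.4% in the CMM12 KO libraries.

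The neural crest is an embryonic cell population that leaves the neural tube by an EMT, migrates, and gives rise to melanocytes among other cells. ZEB1, ZEB2, SNAI1, SNAI2 and TWIST1 are transcription factors that repress epithelial genes such as the one for E-cadherin. SOX9 and SOX10 are related factors of the crest, and SOX10 is required for the melanocyte lineage. MSX1 is a homeobox factor of the neural plate border and crest. NGFR, the low-affinity neurotrophin receptor, and NES, the intermediate filament nestin, mark crest-derived and progenitor-like cells. In melanoma these genes are used to describe differentiated and undifferentiated cell states.

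Levels of different genes were compared as TPM, a share of all transcripts that accounts for transcript length. The orders below rest on the listed lengths, 903 bases for SNAI2 against 3536 for ZEB1, 4223 for ZEB2 and 1602 for SNAI1. By counts without length, ZEB1 exceeded SNAI2 in every library. In CMM2, SNAI2 was the most abundant of the 9 listed genes, with 85.5 TPM in the control, 102 in KO 1 and 163 in KO 2. ZEB1 followed, with 40.8, 41.9 and 37.0 TPM in the same order of libraries. MSX1 came next, with 18.9, 14.3 and 36.0 TPM, and then ZEB2, with 10.75, 13.5 and 13.2 TPM. The ranges of these 4 genes did not overlap between neighbours in the order. SNAI1 (4.28, 3.56 and 0.89 TPM) and NES (0.69, 1.24 and 0.84 TPM) were lower than these and overlapped each other. SOX9 and NGFR had 0 counts in every CMM2 library, which allows up to 3 counts, or 0.262 to 0.2865 CPM (the count scaled to the size of the library), in a library. Such limits cover counting error only.

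In CMM12 the order was another. SNAI2 was again the most abundant, with 57.8 TPM in the control, 55.25 in KO 1 and 46.4 in KO 2, above every other gene of the group. ZEB2 (20.6, 25.8 and 23.15 TPM), ZEB1 (27.2, 16.45 and 25.7 TPM), NES (12.2, 10.6 and 32.7 TPM) and SNAI1 (20.3, 15.4 and 18.9 TPM) formed a middle tier in which the ranges overlapped from each gene to the next. SOX9 (1.36, 0.27 and 3.1 TPM), MSX1 (2.58, 0.24 and 0 TPM) and NGFR (0.03, 0.20 and 0.66 TPM) were lowest among the genes detected there, and their ranges overlapped as well. SOX10 was at 0 in all 3 libraries. SNAI2 stood above 70.7% to 76.5% of the tested genes by TPM in the CMM12 libraries and above 84.7% to 92.1% in the CMM2 libraries.

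**Figure D1:**
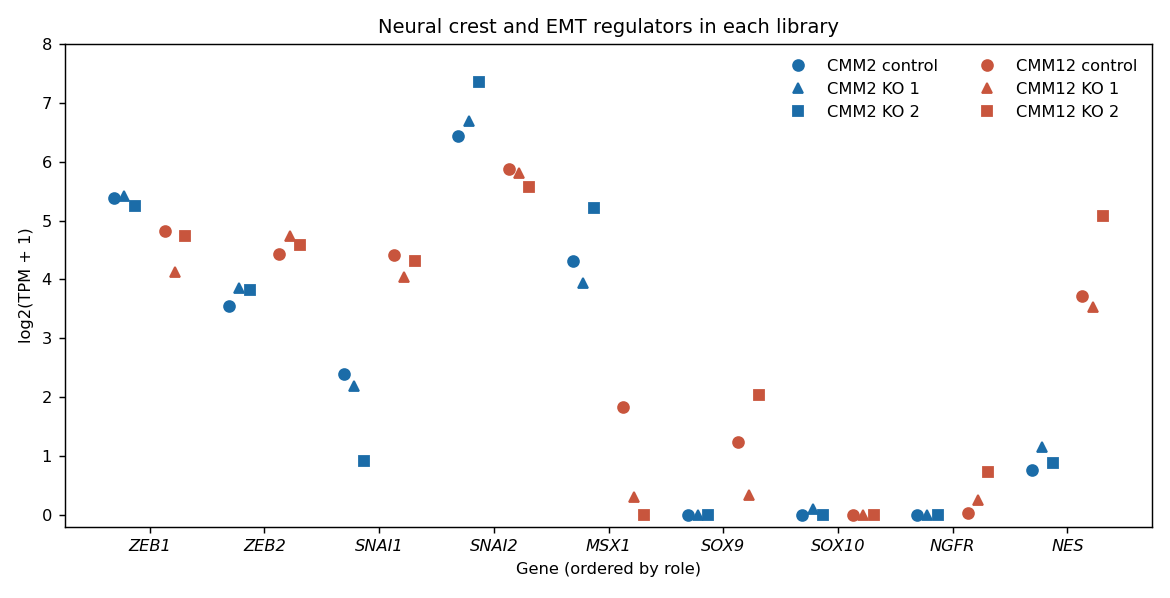
Level of the 9 listed genes in each of the 6 libraries, as log2(TPM + 1) on the vertical axis, with CMM2 in blue and CMM12 in red, and circles for controls, triangles for KO 1 and squares for KO 2. SNAI2 is highest in every library, SOX10 lies at or near 0 everywhere, and the blue and red points separate for ZEB1, ZEB2, SNAI1, SNAI2, MSX1 and NES.

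SOX10 was at or near 0 in both lines. Its whole signal over the 6 libraries was 1 count in CMM2 KO 1 (0.07 TPM). Markers of the pigment lineage were read beside it, because the labels call both lines melanoma. Of 13 melanocytic markers, SOX10 included, 7 reached 1 CPM in any library and 3 reached 10 CPM. DCT, a melanin synthesis enzyme, was at 0 throughout, and MLANA, TYR and S100B each had at most 0.0979 CPM. MITF, the master regulator of melanocytes, was present at 15.4 to 28.4 CPM, the transporter SLC45A2 at 45.5 to 61.7 CPM and RAB27A, which moves melanosomes, at 21.3 to 42.9 CPM. The summed level of the 13 markers was 105 to 113 CPM in CMM2 and 105 to 123 CPM in CMM12. CDH19, a cadherin of Schwann cells and their precursors, was at 0 in all libraries. Among markers of other cells, the 10 fibroblast genes summed to 1460 to 11200 CPM in CMM2 and 3380 to 8010 CPM in CMM12, mostly fibrillar collagens. Of 10 epithelial markers 7 were listed, and they summed to 2.93 to 5.42 CPM and 4.65 to 24.7 CPM. The leukocyte markers PTPRC, CD3E and LYZ were at 0. CSF1R reached 4.89 CPM (CMM12 KO 2), CD68 2.77 CPM (CMM2 control) and ITGAM 0.365 CPM (CMM12 KO 1), while CD79A carried 747 to 1212 CPM. The strand setting is not stated, and whether an overlapping gene adds reads to CD79A was not tested, so that level is uncertain.

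The first comparison asked which of these genes differed between the lines, with 3 libraries per line and the genotype as a second term in the model. ZEB1, SNAI2 and MSX1 were higher in CMM2, and ZEB2, SNAI1, NES, SOX9 and NGFR were higher in CMM12. All 8 passed edgeR's quasi-likelihood test at a Benjamini-Hochberg adjusted p under 0.05, and all 8 passed with DESeq2. The background is wide, because 25.8% of the 12270 genes tested passed the same test, 14.6% higher in CMM12 and 11.2% higher in CMM2. DESeq2 called 32.2% of them, and 40.0% had an unadjusted edgeR p under 0.05. Values without overlap between the lines were found for 46.1% of all genes tested. SOX9 and NGFR entered the test through CMM12 alone and had to differ, so the gene-by-gene values below carry the comparison.

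The ZEB factors went in opposite directions. ZEB1 had 133, 134 and 117 CPM (library-scaled counts) in the CMM2 control, KO 1 and KO 2, and 76.7, 51.3 and 71.1 CPM in those of CMM12. Every CMM2 library was above every CMM12 library. The mean was 128 ± 9.54 CPM in CMM2 and 66.3 ± 13.4 in CMM12 (SD, n = 3), a log2 fold change of −0.96 (SE 0.18, edgeR adjusted p 0.00959). ZEB2 had 41.3, 52.0 and 49.8 CPM in the CMM2 libraries and 72.1, 97.0 and 74.7 CPM in CMM12. Its mean was 47.7 ± 5.67 CPM against 81.3 ± 13.7 (SD, n = 3), a log2 fold change of 0.77 (SE 0.165, edgeR adjusted p 0.0151). Of all genes tested, 26.1% differed between lines by at least the fold of ZEB1 and 32.9% by at least that of ZEB2. The call for ZEB2 was lost without the CMM2 control (adjusted p 0.0674), CMM2 KO 1 (0.0589), the CMM12 control (0.0637) or CMM12 KO 1 (0.0535). ZEB1 kept its call with each library left out in turn and lost it on unfiltered log2(TPM + 1) values (limma adjusted p 0.0618).

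The SNAI factors also went in opposite directions. SNAI1 had 5.63, 4.63 and 1.135 CPM in the CMM2 control, KO 1 and KO 2, from 59, 53 and 12 counts. In CMM12 it had 23.4, 19.3 and 21.6 CPM. The lowest CMM12 library stood well above the highest CMM2 library. The mean was 3.80 ± 2.36 CPM against 21.45 ± 2.03 (SD, n = 3), a log2 fold change of 2.55 (SE 0.47, edgeR adjusted p 0.0092). SNAI2 had 53.0, 62.8 and 98.7 CPM in CMM2 and 31.6, 32.7 and 25.25 CPM in CMM12. Again the lines did not overlap, and the spread in CMM2 came from KO 2. The mean was 71.5 ± 24.0 CPM against 29.9 ± 4.03 (SD, n = 3), a log2 fold change of −1.23 (SE 0.26, edgeR adjusted p 0.0137). SNAI2 lost its call without CMM12 KO 2 (adjusted p 0.0589), and SNAI1 kept its call with each library left out.

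The balance within each pair of paralogs was read from TPM and depends on the listed lengths. The ratio of ZEB2 to ZEB1 was 0.264, 0.321 and 0.356 in the CMM2 control, KO 1 and KO 2, and 0.757, 1.57 and 0.901 in CMM12. By TPM, ZEB1 thus exceeded ZEB2 in every library except CMM12 KO 1, which had the lowest ZEB1 and the highest ZEB2 of the 6 libraries. By counts without length, ZEB2 exceeded ZEB1 in CMM12 KO 2 as well (763 against 726). The mean ratio was 0.314 ± 0.0466 in CMM2 and 1.08 ± 0.434 in CMM12 (SD, n = 3, exact two-sided permutation p = 0.1, the smallest this design allows). Summed over both paralogs, the ZEB level was 50.1 to 55.3 TPM in CMM2 and 42.3 to 48.8 TPM in CMM12, a smaller separation than that of either gene. SNAI1 amounted to 5.0%, 3.49% and 0.545% of the SNAI2 level in CMM2 and to 35.1%, 27.9% and 40.7% in CMM12 (exact two-sided permutation p = 0.1). SNAI2 was therefore the major SNAI transcript in all 6 libraries.

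**Figure D2:**
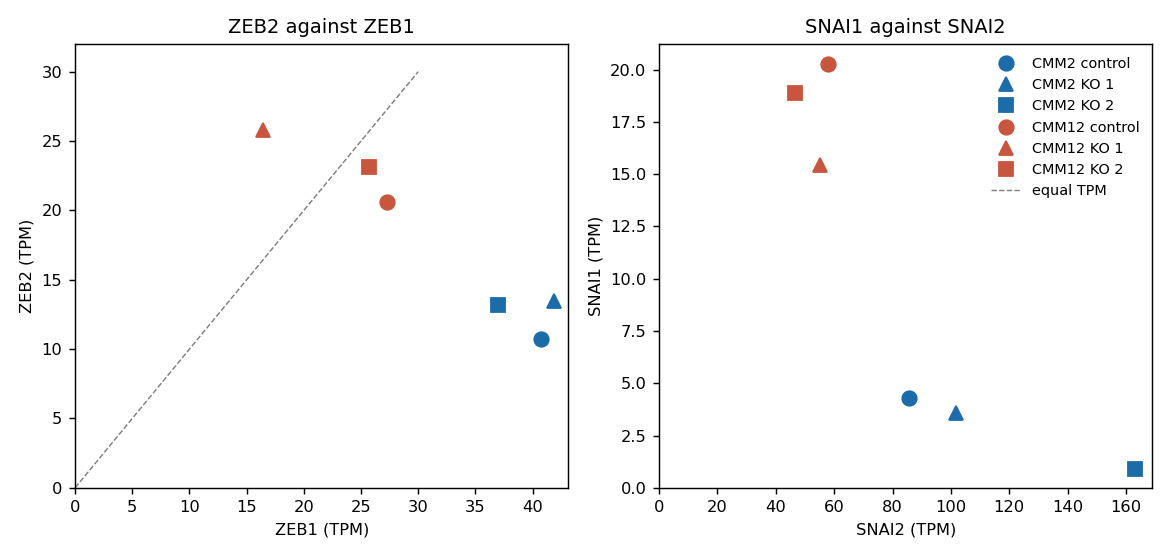
Paralogs plotted against each other in TPM, ZEB2 against ZEB1 on the left with a dashed line of equal TPM, and SNAI1 against SNAI2 on the right, 1 point per library in the colours of its line. CMM2 libraries lie at the high ZEB1 and SNAI2 ends and CMM12 libraries at the high ZEB2 and SNAI1 ends, and CMM12 KO 1 is the point above the line of equal ZEB levels.

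MSX1 and NES separated the lines by more. MSX1 had 22.3, 16.7 and 41.3 CPM in the CMM2 control, KO 1 and KO 2. In CMM12 it had 2.675 CPM in the control (31 counts), 0.274 in KO 1 (3 counts) and 0 in KO 2. Every CMM2 library was thus above every CMM12 library, and the log2 fold change was −5.225 (SE 0.97, edgeR adjusted p 0.0092). Its size moved with the libraries used, to −7.574 without the CMM2 control, −7.568 without the CMM12 control, −4.637 without CMM2 KO 2 and −4.47 without CMM12 KO 2. NES had 2.96, 5.24 and 3.50 CPM in CMM2 and 46.1, 43.5 and 122 CPM in CMM12. Here all CMM12 libraries were higher, and CMM12 KO 2 was the highest of them. The mean was 3.90 ± 1.19 CPM against 70.5 ± 44.6 (SD, n = 3), a log2 fold change of 4.15 (SE 0.43, edgeR adjusted p 0.00148). By p, NES ranked at place 152 of the 12270 genes tested, and 5.85% of genes had as large a fold. Both genes kept their calls in each fit with a library left out.

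SOX9 and NGFR were detected in CMM12 only, at low counts. SOX9 had 17 counts in the CMM12 control, an estimated 3.5 in KO 1 and 34 in KO 2. With CMM2 taken at the floor of 3 counts per library, the CMM12 mean of 1.72 CPM was 6.20-fold higher (edgeR adjusted p 0.037). Counting error in CMM12 is not included in such folds. NGFR had 2, 12 and 33 counts in the CMM12 control, KO 1 and KO 2, and its mean of 1.5 CPM was 5.40-fold above that floor (edgeR adjusted p 0.0279). The CMM12 control, at 0.173 CPM, was itself under the floor, so the NGFR difference came from the KO libraries. SOX9 in CMM12 KO 1, at 0.365 CPM, lay close to the floor. The call for SOX9 was lost without the CMM2 control (adjusted p 0.0799), CMM2 KO 1 (0.0921), CMM2 KO 2 (0.0549), the CMM12 control (0.081) or CMM12 KO 2 (0.111). The call for NGFR was lost without CMM2 KO 1 (0.0876) or CMM2 KO 2 (0.0514), and without CMM12 KO 2 its counts were too low to be tested.

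**Figure D3:**
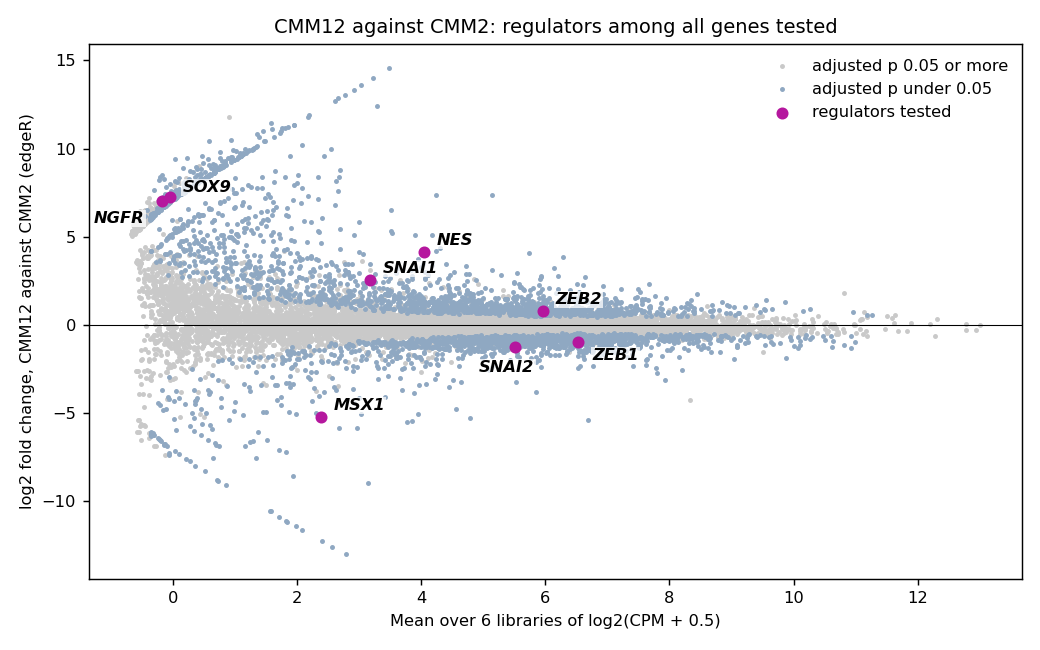
Each point is 1 of the 12270 genes tested, with its mean log2(CPM + 0.5) over the 6 libraries on the horizontal axis and edgeR's log2 fold change of CMM12 against CMM2 on the vertical axis. Genes with an adjusted p under 0.05 are blue-grey and the 8 tested regulators magenta, with NES, SNAI1, ZEB2, SOX9 and NGFR above 0 and ZEB1, SNAI2 and MSX1 below it.

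The second comparison set the podoplanin KO libraries against the control of their line. None of the 8 tested genes passed across lines or in CMM12, by edgeR or by DESeq2, and none of the 6 with counts to test in CMM2, where SOX9 and NGFR were at 0. The background was also near nil, as edgeR called 0% of genes across lines, 0% in CMM2 and 0.00815% in CMM12. DESeq2 called 0.0733%, 0.0489% and 0.326% of them. At an unadjusted p under 0.05 edgeR had 4.03% of genes across lines, 1.90% in CMM2 and 5.99% in CMM12, and MSX1 in CMM12 was the only one of the 8 below that value. Each line has a single control, which is assumed to vary like the KO libraries. The fits within a line take their spread from the 2 KO libraries of each line, and the fit across lines adds the difference between the KO effects of the lines.

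Among the repressors, ZEB2 was above its control in all 4 KO libraries, at 1.26 and 1.21 times the control in CMM2 KO 1 and KO 2 and 1.35 and 1.04 times in CMM12. Across lines its log2 fold change was 0.28 (SE 0.18, edgeR adjusted p 0.987). ZEB1 was at 1.00 and 0.877 times the control in CMM2 and at 0.668 and 0.926 times in CMM12, with −0.21 across lines (SE 0.19, edgeR adjusted p 0.987). SNAI1 was below its control in all 4 KO libraries, at 0.822 and 0.202 times in CMM2 and 0.827 and 0.925 times in CMM12, with −0.56 across lines (SE 0.47, edgeR adjusted p 0.987). The SNAI1 value in CMM2 KO 2 was the lowest, with a 95% counting interval of 0.0986 to 0.379 times the control. Counting intervals here leave out the spread between libraries. The fitted SNAI1 change in CMM2 was −0.955 on the log2 scale (SE 0.703, edgeR p 0.219 before adjustment). Of all tested genes, 10.5% were above and 10.6% below their control in all 4 KO libraries, beside which these 2 genes are read. SNAI2 was above the control in both CMM2 KO libraries, at 1.19 and 1.86 times, and at 1.04 and 0.799 times in CMM12. Both KO libraries were above the control for 30.1% of genes in CMM2 and 35.6% in CMM12, and both were below it for 30.9% and 34.2%. The SNAI2 log2 fold change was 0.61 in CMM2 (SE 0.36, edgeR adjusted p 1) and −0.12 in CMM12 (SE 0.36, edgeR adjusted p 0.985).

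MSX1 had the smallest p among the 8 genes in CMM12. The control there held 31 counts, KO 1 held 3 and KO 2 held 0. KO 1 was at 0.102 times the control (95% counting interval 0.02 to 0.328). KO 2, set at the floor of 3 counts, was 9.11-fold lower than the control, whose own counting error is not included. Before adjustment the edgeR p was 0.00619, for a fitted change of −4.14 (SE 1.04) on the log2 scale. The edgeR adjusted p was 0.702 and the DESeq2 adjusted p 0.0672, so the gene did not pass by either. Without KO 1 the fitted change was −7.867 and without KO 2 it was −3.237 (edgeR adjusted p 0.345 and 0.587). In CMM2 the KO libraries lay on both sides of the control, at 0.747 and 1.85 times, with a log2 fold change of 0.38 (SE 0.69, edgeR adjusted p 1). The difference of both KO effects was −4.52 (SE 1.29), with an edgeR p of 0.0114 (3.84% of genes had a p under 0.05 there) and an adjusted p of 1. DESeq2 called 0.179% of genes for this difference, and MSX1 had an adjusted p of 0.191. The difference was −8.243 without CMM12 KO 1, −3.613 without CMM12 KO 2 and −3.718 without CMM2 KO 2. Marker lists of other cells also differed between the libraries of CMM12. The listed epithelial markers summed to 24.7 CPM in the CMM12 control and to 4.65 and 5.28 CPM in its KO libraries. Most of that fall was keratin KRT14, at 17.7, 0.0912 and 0.979 CPM. CDH1 fell less (6.30, 4.29 and 3.33 CPM), KRT18 rose (0, 0.182 and 0.979 CPM) and CLDN7 was at 0. The fibroblast markers summed to 8010, 3380 and 5290 CPM in the same order, and the members of that list did not move together. COL1A1 (679.5, 5.56 and 73.4 CPM) was lower in both KO libraries, while THY1 (166, 207 and 450 CPM), PDGFRA (29.9, 36.5 and 60.9 CPM) and PDGFRB (3.11, 5.93 and 10.5 CPM) were higher. The Schwann cell markers summed to 23.9, 44.1 and 61.3 CPM, mostly PMP22 at 22.3, 40.7 and 55.6 CPM, with CDH19 at 0 and S100B at 0 or 1 count. In CMM2, where SNAI2 and MSX1 were highest and SNAI1 lowest in KO 2, the fibroblast markers summed to 1460 CPM in the control, 3270 in KO 1 and 11200 in KO 2, with POSTN and THY1 at 0. Their part in these values was not tested, and in bulk RNA fewer cells of a kind and less RNA per cell cannot be told apart.

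NES and SOX9 differed between the KO lines of CMM12, while NGFR was above its control in both. NES was at 0.944 times the control in CMM12 KO 1 and at 2.65 times in KO 2, so its log2 fold change of 0.84 in CMM12 (SE 0.61, edgeR adjusted p 0.888) became −0.083 without KO 2. In CMM2 it was at 1.77 and 1.18 times the control, from 31 counts in the control to 60 and 37. SOX9 was at 0.249 times the CMM12 control in KO 1 (counting interval 0.0609 to 0.762) and at 2.27 times in KO 2 (1.23 to 4.33), on opposite sides. NGFR had 2 counts in the CMM12 control and was at 6.34 times it in KO 1 (1.41 to 58.3) and 18.7 times in KO 2 (4.79 to 161). Its fitted change had an edgeR adjusted p of 0.834 in CMM12. Only the 2 KO libraries of CMM12 were over the filter cutoff of 10 counts for NGFR. The gene thus entered this test through the group where it was high, and its direction is no support for a KO effect.

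**Figure D4:**
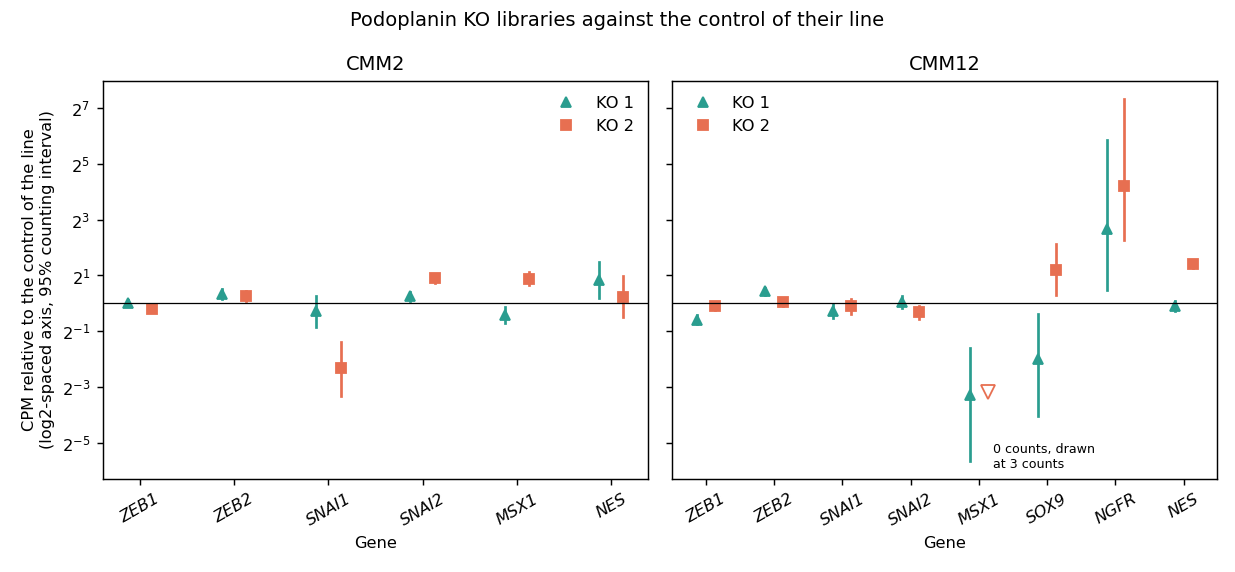
Level in each KO library relative to the control of its line, from library-scaled counts, on a log2-spaced axis with the CMM2 genes on the left and the CMM12 genes on the right; triangles are KO 1, squares are KO 2 and bars are 95% counting intervals. In CMM2 the points run from SNAI1 in KO 2 at 0.202 to SNAI2 in KO 2 at 1.86. In CMM12 the low-count genes MSX1, SOX9 and NGFR have points far from 1, as does NES in KO 2 at 2.65. MSX1 in CMM12 KO 2, at 0 counts, is drawn as an open triangle at the floor of 3 counts.

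Because the numbers of the KO lines recur in both lines, KO 2 was also set against KO 1 over the 4 KO libraries. None of the 7 genes tested there passed (SOX9 was too low), beside 0% of all 11474 genes by edgeR, 4.70% at an unadjusted p under 0.05 and 0.296% by DESeq2. The log2 differences were 0.14 for ZEB1 (SE 0.24), −0.22 for ZEB2 (SE 0.22), −0.75 for SNAI1 (SE 0.58) and 0.15 for SNAI2 (SE 0.31). They were 0.62 for NES (SE 0.51), 0.87 for MSX1 (SE 0.71) and 1.51 for NGFR (SE 1.03). The edgeR adjusted p-values were 0.976 to 0.98. The differences of the KO effects between lines had an edgeR adjusted p of 1 for ZEB1, ZEB2, SNAI1, SNAI2 and NES as well.

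Related genes were read from 8 lists in the contrast of lines, each beside the 25.8% of all genes that passed and a median log2 fold change of 0.04 over all genes. No list is set against chance here, adjusted p-values are edgeR's, and a gene at 0 in 1 line passed the count filter through the other line. Across lines, edgeR called none of the genes of any list in KO against control.

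Of 29 other EMT regulators, 22 were tested, and 6 were higher in CMM12 and 1 in CMM2 (31.8% called, median 0.39). The gene higher in CMM2 was TWIST2, the paralog of TWIST1, with 1.61 to 3.44 CPM there and 0 to 0.432 CPM in CMM12 (adjusted p 0.0176, lost without CMM2 KO 1 at 0.0592 or CMM12 KO 2 at 0.0541). PRRX2, a mesenchymal homeobox factor, was at 0 in CMM2 and at 6.73, 1.46 and 0.685 CPM in the CMM12 control, KO 1 and KO 2 (adjusted p 0.00969, lost without the CMM12 control at 0.0745). ID1, an inhibitor of basic helix-loop-helix factors, was higher in CMM12 by 1.38 on the log2 scale (SE 0.30, adjusted p 0.0148, and 0.0506 without CMM12 KO 2). In KO against control, PRRX2 and TWIST2 had the smallest p of this list (0.0275 and 0.0785, edgeR adjusted p 0.987 for both). The KO change of PRRX2 came from CMM12 alone, as PRRX2 was at 0 in CMM2.

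Epithelial genes and their regulators had 12 of 25 tested, of which 5 were higher in CMM12 and 2 in CMM2 (58.3%, median 2.43). CDH1, which encodes E-cadherin and is a target of the ZEB and SNAI repressors, was at 0 in CMM2 and at 6.30, 4.29 and 3.33 CPM in CMM12 (adjusted p 0.00366). JUP, the junction protein plakoglobin, was higher in CMM12 by 2.77 (SE 0.34, adjusted p 0.00228), with 24.5 to 61.3 CPM against 2.96 to 7.76. CLDN1, a claudin of tight junctions, was at 0 in CMM2 and at 11.5 CPM in the CMM12 control but at 0.547 and 0.489 in its KO libraries (adjusted p 0.0065 between lines, not tested without the CMM12 control and lost on the log2(TPM + 1) scale). ESRP1, an epithelial splicing regulator, went the other way, with 2.93 to 5.42 CPM in CMM2 and at most 1 count in CMM12 (adjusted p 0.00374). CLDN1 and JUP also had the smallest p of this list in KO against control (0.00152 and 0.0211, adjusted p 0.987 for both). For CLDN1 only the CMM12 control was over the filter cutoff of 10 counts. CLDN1 entered this test through the library where it was high, so its direction is no support for a KO effect.

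In CMM2, 18 of the 20 tested mesenchymal targets had a positive KO change and 2 a negative one, with a median of 0.97 against 0.001 over all genes, and 0 passed. In CMM12, 8 were positive and 12 negative. Between lines, mesenchymal targets had 20 of 21 tested, of which 5 were higher in CMM12 and 0 in CMM2 (25.0%, median 0.04), a share close to that of all genes. TNC, the matrix protein tenascin C, had at most 1 count in a CMM2 library and 13.1, 27.1 and 106 CPM in CMM12 (adjusted p 9.22e-04). MMP2, a gelatinase, had at most 1 count in CMM2 and 56.1, 7.57 and 38.9 CPM in CMM12 (adjusted p 0.00172). THBS1, thrombospondin 1, was higher in CMM12 by 1.89 (SE 0.19, adjusted p 0.00115). CDH11, a mesenchymal cadherin, was higher by 1.67 (SE 0.42, adjusted p 0.0256), a call lost without the CMM2 control (0.123), CMM2 KO 1 (0.0872), the CMM12 control (0.149) or CMM12 KO 1 (0.1). In KO against control, CDH11 had a log2 fold change of −1.88 (SE 0.41) and the fibronectin gene FN1 of 0.775 (SE 0.17), both with an edgeR adjusted p of 0.987, and DESeq2 adjusted p-values of 0.0935 and 0.00369.

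Among other neural crest regulators 27 of 43 were tested, with 9 higher in CMM12 and 4 in CMM2 (48.1%, median 0.68). PAX3, which acts with SOX10 on MITF, had 0, 0 and 0.568 CPM in CMM2 and 3.71, 8.39 and 4.70 CPM in CMM12 (log2 4.95, SE 0.99, adjusted p 0.0118). Only CMM2 KO 2 held counts of PAX3 in that line, and the value was 8.83 without it and 4.29 without CMM2 KO 1. DLX3, a homeobox factor, was at 0 in CMM2 and at 0.777, 14.9 and 9.30 CPM in the CMM12 control, KO 1 and KO 2 (adjusted p 0.00254 between lines). MYC was higher in CMM12 by 0.81 (SE 0.15, adjusted p 0.00859) and SOX4 by 3.06 (SE 0.65, adjusted p 0.0147, and 0.0571 without CMM2 KO 1). The SOX4 value was 3.71 without either control. In KO against control DLX3 and SOX5 had p-values of 0.00337 and 0.00784 (edgeR adjusted p 0.987 for both). For DLX3 only the KO libraries of CMM12 were over the filter cutoff of 10 counts, so its direction is no support for a KO effect. SOX5 was above its control in all 4 KO libraries, as were 10.5% of all tested genes. It was named for its small p, so no support is drawn from that pattern.

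Of the 27 targets of SOX10 and MITF, 13 were tested, with 2 higher in CMM12 and 1 in CMM2 (23.1%, median −0.05). TYRP1, a melanosomal enzyme, was at 0 in CMM2 and at 3.71, 4.29 and 6.07 CPM in CMM12 (adjusted p 0.00376). CDK2 was higher in CMM2 (−0.71, SE 0.19, adjusted p 0.031) and TFEB, a relative of MITF, in CMM12 (1.04, SE 0.315, adjusted p 0.0481). With 1 library left out, both kept their calls only without CMM2 KO 2, with adjusted p up to 0.139 for CDK2 and 0.204 for TFEB. SLC24A5 did not pass (−1.07, SE 0.36, adjusted p 0.0682). In KO against control TFE3 and RAB27A had the smallest p (0.0514 and 0.11, adjusted p 0.987 for both).

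Genes of the undifferentiated melanoma state had 24 of 27 tested, with 8 higher in CMM12 and 2 in CMM2 (41.7%, median 0.33), TNC among them. CCN1, a matricellular YAP target, was higher in CMM2 (−1.35, SE 0.24, adjusted p 0.00812). NT5E, the ectonucleotidase CD73, was higher in CMM12 by 2.30 (SE 0.47, adjusted p 0.0126, lost without the CMM2 control at 0.0585 or the CMM12 control at 0.0592). The NT5E value was 2.998 without CMM2 KO 2. SLIT2, a guidance cue, was at 0 in CMM2 and at 18.9, 0.547 and 2.45 CPM in CMM12 (adjusted p 0.00834, and 0.0722 without the CMM12 control). Its call was also lost with limma on log2(TPM + 1), filtered or not, and on log2(TPM + 0.1) (limma adjusted p up to 0.169). SLIT2 and TNC had the smallest p of this list in KO against control (0.00776 and 0.0176, adjusted p 0.987 for both). With SLIT2 at 0 and TNC at 0 to 0.0874 CPM in CMM2, these p-values rest mainly on CMM12.

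Around NGFR, 7 of 19 neurotrophin genes were tested and 1 was called (14.3%, median 0.46). That gene, MAGED1, which encodes an NGFR-binding protein, was higher in CMM12 by 2.24 (SE 0.35, adjusted p 0.00513), with 123 to 275 CPM against 35.7 to 58.5. SORT1, the NGFR co-receptor sortilin, had a log2 fold change of 0.75 (SE 0.26, adjusted p 0.0688), RIPK2 of −0.69 (SE 0.25, adjusted p 0.0787) and SORCS2 of 3.43 (SE 1.41, adjusted p 0.113), and none of these passed. In KO against control, RIPK2 had a p of 0.162 (adjusted p 0.987).

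Around NES, 9 of 17 intermediate filament genes were tested, with 5 higher in CMM12 and 0 in CMM2 (55.6%, median 1.41). SYNM, the nestin-like filament protein synemin, had 2.39, 2.71 and 2.84 CPM in CMM2 and 7.42, 10.5 and 26.5 CPM in CMM12 (log2 2.38, SE 0.45, adjusted p 0.00976, and 0.0549 without CMM2 KO 1). Like NES, it was highest in CMM12 KO 2. BFSP1 was higher in CMM12 by 2.41 (SE 0.32, adjusted p 0.00315), the neuronal filament gene PRPH by 4.375 (SE 0.87, adjusted p 0.0115) and the lamin gene LMNB1 by 0.86 (SE 0.19, adjusted p 0.0151). The PRPH value was 5.07 without either control and 3.69 without CMM2 KO 1. LMNB1 lost its call without the CMM2 control (0.0534), the CMM12 control (0.05) or CMM12 KO 2 (0.0504). In KO against control LMNA and SYNM had the smallest p (0.0856 and 0.142, adjusted p 0.987 for both).

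**Figure D5:**
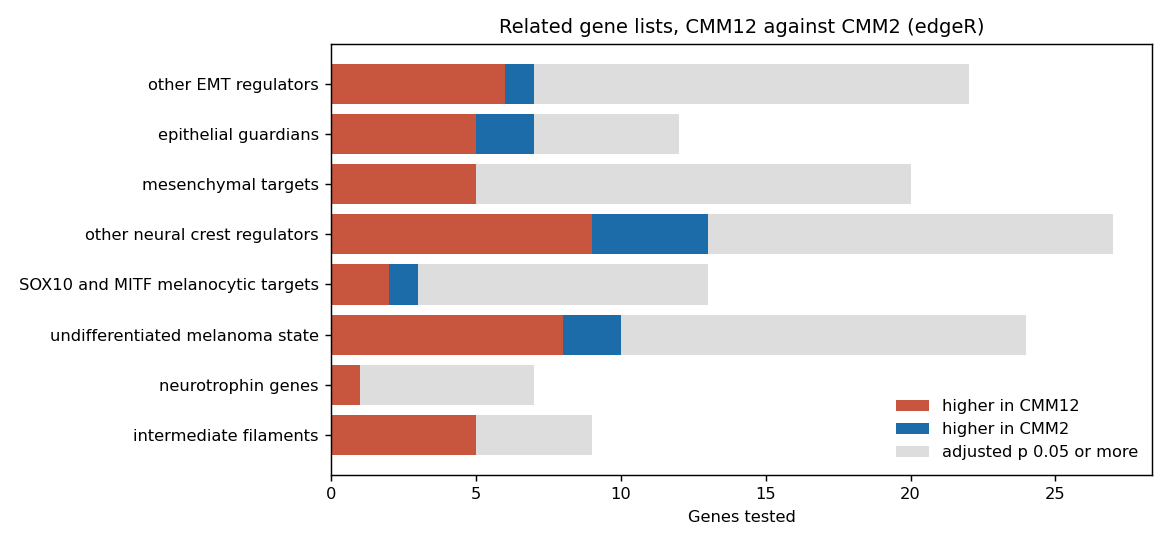
Number of genes tested in each of the 8 related lists (horizontal bars, from 0), split into genes higher in CMM12 (red), higher in CMM2 (blue) and not passing edgeR's adjusted p of 0.05 (grey). Mesenchymal targets and intermediate filaments have 5 genes each higher in CMM12 and 0 higher in CMM2, and the other neural crest regulators have the most called genes, 9 and 4.

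Lastly, the genes with the most similar profile over the 6 libraries were sought for the 6 genes with a mean of at least 10 CPM, by the root mean square distance of centred log2(CPM + 0.5) among 8023 other genes. For ZEB1 they were PMS2 (distance 0.0435) and LPCAT3 (0.0741), and for ZEB2 ZC3H3 (0.0712) and SHARPIN (0.0811). For SNAI2 they were PCMTD1 (0.092) and TRIM13 (0.113), and for SNAI1 GLRB (0.278) and ABCB4 (0.295). For NES they were RARG (0.446) and the gene listed as cdkn2A (0.471), and for MSX1 CDH6 (0.803) and CARD6 (0.804). Within the group itself ZEB1 and SNAI2 were each other's nearest profile (0.43), as were SNAI1 and NES (1.02). The 3 libraries of a line share that line, so the 6 points are not independent.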

How the data were processed

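RNA was sequenced from 6 libraries of CMM2 and CMM12. Reads were processed with STAR 2.7.3a and RSEM 1.3.3 on the build CanFam3.1, per the submitters' processing notes. The authors deposited expected counts per gene, unscaled, and TPM, scaled for length within each library, per the file headers. The strand setting and annotation release are not stated there, and antisense or overlapping genes cannot be told apart without strand. No coordinates or sequences are given, since no table of that build was used here.

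Counts were rounded (3.22% to 3.63% of values changed) and tested with edgeR 4.0.16 (glmQLFit, glmQLFTest, TMM factors, filterByExpr on the 4 groups) in R 4.3.3, with Benjamini-Hochberg adjustment over all 12270 genes at 0.05. Line contrasts and KO across lines came from a model adding line to genotype, leaving 3 residual degrees of freedom. Other KO contrasts came from 4 group means, leaving 2, and KO numbers from line plus number, leaving 1. CPM used TMM-scaled totals. DESeq2 1.42.0 and limma 3.58.1, other scalings and filters, and leaving out each library were alternatives. Adjusted p-values that DESeq2 gave as NA stayed NA. Together the 8 lists name 200 genes, 180 of them listed and 128 tested. Named genes were all members, PDPN, up to 4 genes per list with the smallest p between lines and 2 in KO against control, and the 2 nearest profiles per member. Some genes that this rule names are not reported here. Members and lists were chosen with earlier results of these data known. The fits were also run on simulated counts with the same spread set for every gene, so that run says little about the real spread of these libraries.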

Additional observations from a re-analysis of the deposited data

Results flagged for a closer look

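In 4 of the 47 named genes both KO libraries of 1 line lay above their control and both of the other line below it, a pattern that 21.2% of all tested genes had. None of the regulators themselves was among them. ID1 had 36.8 CPM in the CMM2 control against 66.9 and 54.9 in KO 1 and KO 2, and 182 CPM in the CMM12 control against 106 and 127. The KO effect in CMM12 minus that in CMM2 was −1.37 on the log2 scale for ID1 (SE 0.37, edgeR p 0.00863 for the difference). It was −0.99 for SORT1 (SE 0.43, p 0.0595), 1.82 for SOX4 (SE 1.23, p 0.185) and 1.90 for PRPH (SE 1.90, p 0.354). The edgeR adjusted p was 1 for all 4 genes.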

How the results depend on the processing

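The directions of the 8 tested regulators between lines held in all 141 values from alternative fits. None of the 8 overlapped between lines, so refits of the same libraries could hardly reverse a direction. No support is drawn from that count. DESeq2, other scalings, other filters and TPM-based fits called 2419 to 3951 genes between lines, against 3170 in the main analysis, and 1499 to 3096 with 1 library left out. Of the 8 regulators, 5 were called by limma on log2(TPM + 1) without a filter, and 5 to 7 with 1 library left out. The median of all genes in that contrast moved from 0.038 to 0.152 with limma on log2(TPM + 1).

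KO calls across lines, 0 in the main analysis, numbered 9 with DESeq2, 15 without the low-count filter, 3 with limma on log2(TPM + 1), 2 on log2(TPM + 0.1) and 0 to 1 with 1 library left out. In CMM2, 0 became 6 with DESeq2, 1 without the filter and 0 to 1 with 1 library left out. In CMM12, 1 became 40 with DESeq2, 26 without the filter, 4 with the bias-adjusted test, 75 with limma on unfiltered TPM, 0 with a 1 CPM filter or with limma on filtered TPM at either pseudocount, and 0 to 14 with 1 library left out. The difference of KO effects went from 0 to 22 (DESeq2), 2 (no filter) and 0 to 1 (1 library left out), and KO number from 0 to 34 (DESeq2), 12 (no filter) and 2 (limma on log2(TPM + 1)). The causes were not tested.

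No regulator passed a KO comparison in the main analysis, and some directions reversed. Limma on log2(TPM + 1), with or without a filter, gave SOX9 −0.024 across lines and −0.049 in CMM12, and log2(TPM + 0.1) gave −0.212 and −0.424. With 1 library left out, log2 changes across lines ranged from −1.827 to 1.126 for SOX9, −0.123 to 0.607 for SNAI2 and −4.141 to 0.376 for MSX1. In CMM2, MSX1 ranged from −0.424 to 0.887. In CMM12 the ranges were −1.975 to 1.176 for SOX9, −0.322 to 0.052 for SNAI2 and −0.083 to 1.405 for NES. For the difference of KO effects, ZEB2 ranged from −0.25 to 0.127 and NES from −0.646 to 0.841. Over all alternatives MSX1 in CMM12 ranged from −7.867 to −1.685 and its difference of KO effects from −8.243 to −1.94. MSX1 between KO numbers was −0.22 on log2(TPM + 0.1).

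With the KO number as a replicate block, 2959 genes and all 8 regulators were called between lines. The correlation across genes of KO 2 minus KO 1 between lines was 0.057, so the numbers were not taken as pairs. No paired analysis was possible for KO against control because the controls carry no number. KO number fits with 1 library left out were not run, as no residual degrees of freedom remained.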
